A study of Mus musculus with 18 samples.

Results

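The 6 genes described here encode subunits of the phagocyte NADPH oxidase: Cybb, Cyba, Ncf1, Ncf4, Rac1 and Rac2. They were taken by symbol from the array's annotation, as 6 of the 19938 genes that a probe set with 1 symbol names, and each had 1 such probe set. All 6 passed the filter on low values, which kept 13387 genes, and all stood above it in both cell types.

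The series measured RNA on 18 Affymetrix arrays of Ly-6C(hi) monocytes and neutrophils, sorted by flow cytometry from the marrow of C57BL/6 mice. For each cell type there were 4 arrays labelled Zeb2-deficient, Zeb2(fl/fl) with the Mx1-Cre transgene, from mice given poly(I:C). Another 4 arrays per cell type were controls, Zeb2(fl/fl) without Cre, given the same poly(I:C), and 1 array was a control of that genotype left untreated. Poly(I:C), which mimics viral RNA and triggers interferon release, was injected intraperitoneally as 2 doses of 150 µg within 48 h, 3 weeks before the marrow was taken. The Mx1 promoter responds to interferon in many cell types, so deletion is not specific to the sorted cells. Since controls lacked Cre, an effect of Cre itself and an effect of losing Zeb2 cannot be told apart. All groups carried the floxed alleles. Whether the arrays within a group stand for different mice is not said in the labels, and p-values then measure the spread between these arrays, which may be technical.

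The oxidase makes superoxide from oxygen with electrons taken from NADPH, and phagocytes use it against microbes. In the membrane, Cybb (gp91phox), the catalytic subunit, is held by Cyba (p22phox). On activation the cytosolic organiser Ncf1 (p47phox) is phosphorylated and moves to the membrane with its partners, among them Ncf4 (p40phox), which binds a phosphoinositide of the phagosome. A Rac GTPase, Rac1 or Rac2, completes the active complex. Loss of Cybb, Cyba, Ncf1 or Ncf4 function causes chronic granulomatous disease in people. Zeb2 is a zinc-finger repressor of transcription.

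On RefSeq's GRCm38.p6, Cybb (probe set 10603551) spans chrX:9435252-9487766 and Cyba (10582303) spans chr8:122424771-122432940. Ncf1 (10534202) lies at chr5:134220053-134229628 and Ncf4 (10425053) at chr15:78244164-78262582. Rac1 (10535471) lies at chr5:143505481-143528031 and Rac2 (10430372) at chr15:78559169-78572783. Promoter windows of 300 bases, 250 before and 50 after the start site, matched 3 of the 6 genes in RefSeq's GRCm38.p6 table, and they are shown because the tested allele is that of a DNA-binding repressor. All 3 lie on the minus strand and read 5′ to 3′ in the gene's direction, at chrX:9469275-9469574 for Cybb, chr8:122432891-122433190 for Cyba and chr5:134229576-134229875 for Ncf1. Capitals mark a match on either strand to CACCTG, an E-box that Zeb factors bind, or to GAGGAA, the core that the myeloid factor PU.1 binds. The motifs share no overlap.
Cybb: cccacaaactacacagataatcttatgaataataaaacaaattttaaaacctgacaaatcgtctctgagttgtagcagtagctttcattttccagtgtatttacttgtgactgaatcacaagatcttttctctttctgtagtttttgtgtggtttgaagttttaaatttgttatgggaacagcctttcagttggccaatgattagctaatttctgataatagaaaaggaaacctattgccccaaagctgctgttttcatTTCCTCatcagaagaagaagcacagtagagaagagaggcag
Cyba: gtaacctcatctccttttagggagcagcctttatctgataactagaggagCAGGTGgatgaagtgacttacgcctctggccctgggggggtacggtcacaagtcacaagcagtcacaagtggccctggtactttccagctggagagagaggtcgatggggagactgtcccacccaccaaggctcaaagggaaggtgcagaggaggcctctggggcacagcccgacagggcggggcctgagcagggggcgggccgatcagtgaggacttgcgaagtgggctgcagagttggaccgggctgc
Ncf1: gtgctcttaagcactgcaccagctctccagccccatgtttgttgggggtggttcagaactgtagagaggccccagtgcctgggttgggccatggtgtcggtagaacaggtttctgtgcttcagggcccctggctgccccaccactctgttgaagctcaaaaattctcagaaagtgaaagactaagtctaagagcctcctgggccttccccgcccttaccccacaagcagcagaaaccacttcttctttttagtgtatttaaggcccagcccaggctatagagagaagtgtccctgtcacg
The Cyba window held CACCTG, read as CAGGTG on the printed strand and beginning 200 bases before the start site. The Cybb window held GAGGAA, read as TTCCTC and beginning 9 bases after the start site. That start site lies inside the span given above for Cybb, not at its outer end. No match to either motif was found in the Ncf1 window. Of 32851 such windows in the table, 20.2% held CACCTG and 28.3% held GAGGAA, so these matches describe letters and show no binding.

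The labelled cell types were checked against 9 marker lists, and changes in lists of other cell types are given after the Ncf1 result. The mean of 17 Ly-6C(hi) monocyte markers was 8.34 to 9.31 (log2 intensity) on deficient monocyte arrays and 9.39 to 9.62 on control ones, against 4.97 to 5.26 on deficient neutrophil arrays and 4.99 to 5.18 on control ones. The mean of 20 mature neutrophil markers was 9.59 to 10.3 in monocytes labelled Zeb2-deficient and 7.44 to 8.57 in their controls, and in neutrophils 11.5 to 11.7 and 11.7 to 11.8. None of these 20 markers lay below the 40th percentile on all 4 arrays of either monocyte group. The summed level of 7 megakaryocyte markers was 7.97 to 10.93 (log2) on deficient neutrophil arrays and 7.90 to 9.51 on control ones. Zeb2 read 9.75, 9.84, 9.46 and 8.74 on monocyte arrays labelled deficient and 10.08, 9.88, 9.88 and 9.86 on their controls. In neutrophils it read 7.72, 7.10, 7.85 and 8.25 on arrays labelled deficient, against 7.19, 6.86, 7.54 and 7.40 on controls, which goes against the label. The probe set summarises the whole transcript and so does not check the deletion. By the order of the sample list the arrays fall into sets, A with 10 arrays and B with 8, and each poly(I:C) group has 2 arrays in each.

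In monocytes labelled Zeb2-deficient, 1 of the 6 subunits, Ncf1, was higher than in poly(I:C) controls. It was 1.60-fold higher, and the other 5 did not pass the test (limma, two-sided, Benjamini-Hochberg adjustment over all genes tested at 0.05). Of all 13387 genes, 5.11% were higher and 7.54% differed in either direction, and 1 call among 6 shows nothing particular to the subunits. In neutrophils 0 of 6 passed by limma, and 0.12% of all genes did. At an unadjusted p under 0.05 were 0 of 6 subunits and 683 of 13387 genes there. Between cell types, Ncf1, Ncf4 and Rac2 were lower in control monocytes than in control neutrophils.

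**Figure D1:**
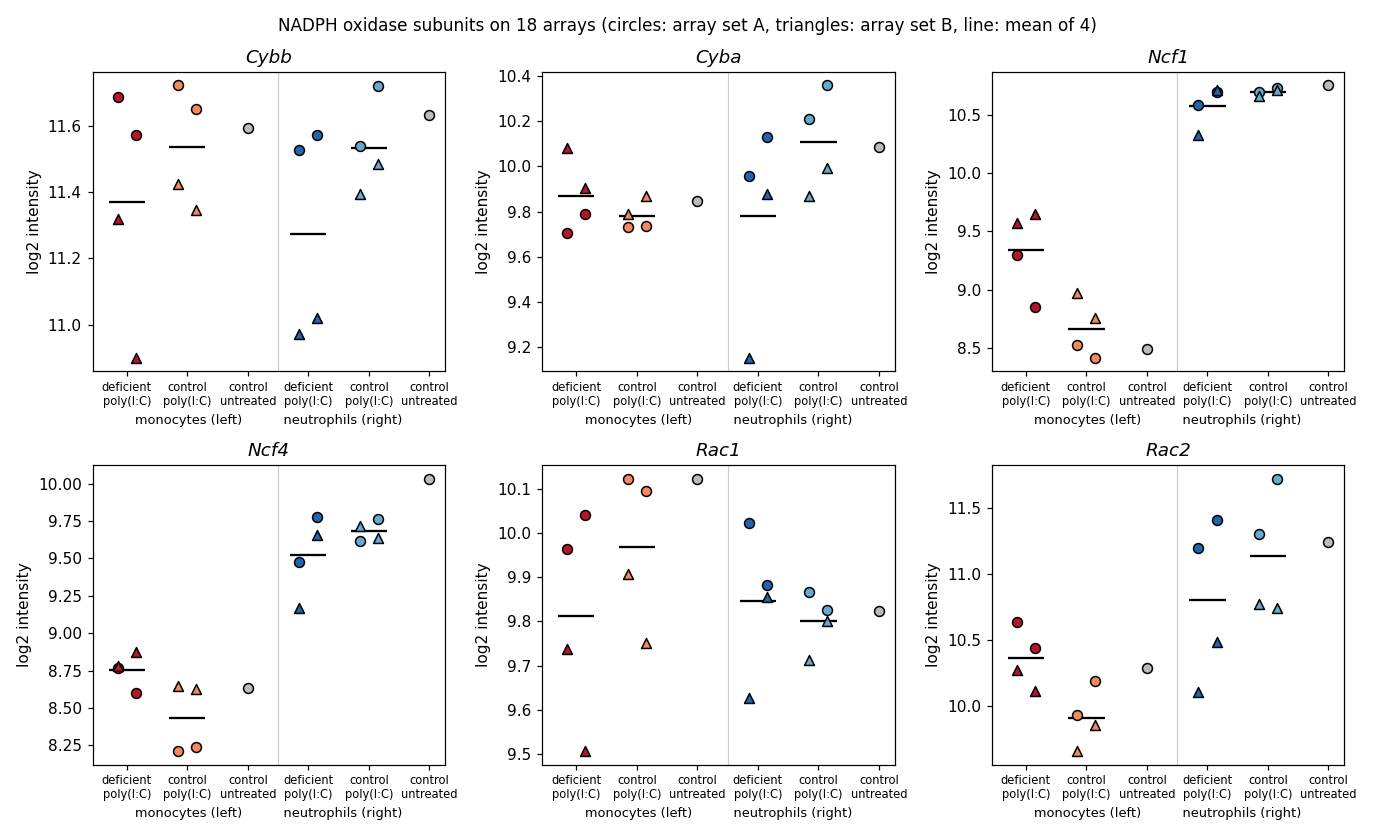
Log2 intensity of each subunit on each of the 18 arrays, 1 panel per gene, with groups along the x axis and a bar at the mean of each group of 4. Ncf1 in monocytes lies at 8.85 to 9.65 on arrays labelled deficient and at 8.41 to 8.97 on poly(I:C) controls, below all neutrophil arrays.

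Neither subunit of the membrane core passed the test by genotype or between cell types in the fit over all arrays. In monocytes Cybb read 11.69, 11.57, 11.32 and 10.90 (log2 intensity) on arrays labelled deficient, and 11.72, 11.65, 11.42 and 11.35 on controls. The groups overlapped, with means of 11.37 ± 0.35 and 11.53 ± 0.18 (SD, n = 4 each). The difference was -0.17 ± 0.16 (log2, SE), with a 95% interval of -0.51 to 0.18 and adjusted p = 0.654 by limma.

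In neutrophils Cybb read 11.53, 11.57, 10.97 and 11.02 on deficient arrays, against 11.54, 11.72, 11.39 and 11.49 on controls. The lowest arrays were deficient replicates 3 and 4, and the groups overlapped. The difference was -0.26 ± 0.16, with a 95% interval of -0.60 to 0.08 (adjusted p = 0.999, limma). Control monocytes and control neutrophils had the same mean to 2 decimals, 11.53 ± 0.18 and 11.53 ± 0.14 (SD, n = 4 each), and the 95% interval of their difference ran from -0.34 to 0.34. This likeness depended on the normalization. Under quantile normalization the difference was -0.40, outside that interval. Over 18 other settings it ran from -0.40 to 0.06 and passed in 0 by limma.

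Cyba, the stabilising partner, read 9.70, 9.79, 10.08 and 9.90 in monocytes labelled deficient and 9.73, 9.74, 9.79 and 9.87 in controls. The difference of 0.09 ± 0.17 had a 95% interval of -0.26 to 0.44. In neutrophils it read 9.96, 10.13, 9.15 and 9.88 in the deficient group, against 10.21, 10.36, 9.87 and 9.99 in controls. Deficient replicate 3 was the lowest Cyba value of all arrays, and the difference of -0.33 ± 0.17 did not pass (95% interval -0.68 to 0.02, limma adjusted p = 0.989). Control monocytes stood below control neutrophils by -0.32 ± 0.17, with adjusted p = 0.10 by limma, where 58.6% of all genes differed. This difference passed in 3 of 18 other settings by limma. These were quantile normalization (-0.63, adjusted p = 0.00484), only the arrays compared (adjusted p = 0.0185) and set A (-0.55, adjusted p = 0.00109). Quantile normalization moved this comparison by a median of -0.09 among the 2678 genes of highest mean, and by 0.06 among the 2678 of lowest mean. Calls over all genes went from 3998 higher and 3848 lower to 3488 and 4444. Cyba moved further than the median of -0.09, and how much of its move is general was not tested. Within set B the Cyba difference was -0.10 (adjusted p = 0.682, limma), and it passed in 0 of 8 fits with 1 array left out. Among samples labelled deficient, monocytes minus neutrophils gave 0.09 ± 0.17 for Cyba, and the sets went opposite ways. Within set A the difference was -0.30 and passed (adjusted p = 0.0356, limma), and within set B it was 0.48 (adjusted p = 0.0548, limma).

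The cytosolic organiser Ncf1 was the subunit that passed. In monocytes it read 9.30, 8.85, 9.57 and 9.65 on arrays labelled deficient, and 8.52, 8.41, 8.97 and 8.75 on poly(I:C) controls. Deficient replicate 2 lay below control replicate 4, so the groups overlapped in that pair, with means of 9.34 ± 0.36 and 8.66 ± 0.25 (SD, n = 4 each). The difference was 0.68 ± 0.16 (log2, SE), with a 95% interval of 0.35 to 1.01 and adjusted p = 0.0106 by limma. It was 0.61 within set A (adjusted p = 0.0593) and 0.75 within set B (adjusted p = 0.00442), both by limma on 2 arrays a group. With only the 8 arrays compared in the fit, adjusted p was 0.0745 by limma.

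Markers of neutrophils were also higher on the monocyte arrays labelled deficient. Deficient replicate 2, the lowest of its group for Ncf1, was also the lowest for the mean of the mature neutrophil markers, at 9.59. Control replicate 4, the highest control for Ncf1, was the highest control for that mean, at 8.57. The other 3 deficient arrays ran in the opposite order, with marker means of 10.27, 10.24 and 10.16 in replicates 1, 3 and 4 beside Ncf1 values of 9.30, 9.57 and 9.65. Of the 20 markers, 15 were higher and 0 lower in monocytes labelled deficient, with a median difference of 2.46 against -0.03 over all genes, and their summed level on the log2 scale was 15.01 to 15.50 on deficient arrays and 13.39 to 14.59 on controls. Of 13 promyelocyte markers 12 were higher, with a summed level of 13.12 to 14.65 and 12.14 to 13.01 in the same groups. Of 17 Ly-6C(hi) monocyte markers 8 were lower, with a median difference of -0.78. Of 5 eosinophil, mast cell and basophil markers 2 were higher, with a summed level of 7.67 to 9.09 on deficient arrays and 7.51 to 7.61 on controls. Of 12 macrophage and dendritic markers 2 were higher and 2 lower, and of 5 erythroid markers 1 was higher. Lists of B, T and NK cells and of megakaryocytes had 0 calls by limma. The part of these markers in the Ncf1 difference was not tested, and in bulk samples fewer cells of a type and less RNA per cell cannot be told apart.

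**Figure D2:**
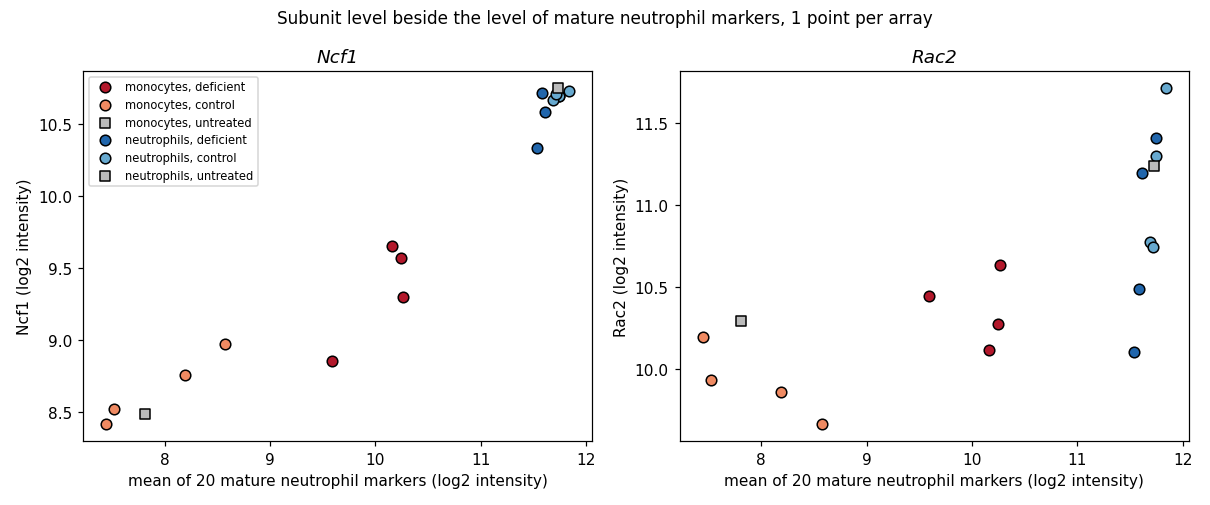
Log2 intensity of Ncf1 (left) and Rac2 (right) on the y axis against the mean log2 intensity of 20 mature neutrophil markers on the x axis, 1 point per array coloured by group. Monocyte arrays labelled deficient lie at marker means of 9.59 to 10.3 and their controls at 7.44 to 8.57, and Ncf1 is lowest in each of these groups where the marker mean is lowest, while the other 3 deficient arrays run in the opposite order.

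In neutrophils Ncf1 read 10.58, 10.70, 10.33 and 10.71 on deficient arrays, against 10.70, 10.73, 10.67 and 10.71 on controls. The controls were tightly grouped (SD 0.028, n = 4), and the difference of -0.12 ± 0.16 had a 95% interval of -0.45 to 0.21. The change in monocytes minus the change in neutrophils was 0.80 ± 0.22 with adjusted p = 0.0629 by limma. It passed with the replicate number as a block (adjusted p = 0.0462), where 3.43% of all genes did, and with array set as a block (adjusted p = 0.0232), where 4.24% did. Within set A it was 0.68 (adjusted p = 0.242) and within set B 0.91 (adjusted p = 0.0191), by limma. Over all genes 2.68% passed this test of the difference, and 0 of 6 subunits did by limma. At an unadjusted p under 0.05 were 3 of 6 subunits and 1807 of 13387 genes.

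Ncf1 was 4.10-fold lower in control monocytes than in control neutrophils (-2.04 ± 0.16, adjusted p = 3.58e-09 by limma), where 58.6% of all genes differed. Among samples labelled deficient the difference was -1.24 ± 0.16 (adjusted p = 2.42e-06, limma), where 62.1% of all genes differed. These comparisons use the same arrays as those above and give no separate evidence about the change in monocytes.

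Ncf4, which binds phagosomal lipid, read 8.76, 8.60, 8.78 and 8.87 in monocytes labelled deficient and 8.21, 8.24, 8.65 and 8.63 in controls. Only deficient replicate 2 lay below a control array. The difference of 0.32 ± 0.14 did not pass over all genes (95% interval 0.04 to 0.61, adjusted p = 0.174, limma). In neutrophils it read 9.48, 9.78, 9.17 and 9.65 in the deficient group and 9.61, 9.76, 9.72 and 9.64 in controls, a difference of -0.16 ± 0.14 that did not pass. Control monocytes were 2.38-fold lower than control neutrophils (-1.25 ± 0.14, adjusted p = 3.09e-07, limma), and among samples labelled deficient the difference was -0.77 ± 0.14 (adjusted p = 1.05e-04, limma).

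Rac1, the widely expressed GTPase, read 9.96, 10.04, 9.74 and 9.51 in monocytes labelled deficient and 10.12, 10.10, 9.91 and 9.75 in controls. The groups overlapped, and the difference of -0.16 ± 0.12 had a 95% interval of -0.42 to 0.10. In neutrophils it read 10.02, 9.88, 9.63 and 9.86 in the deficient group and 9.87, 9.83, 9.71 and 9.80 in controls. That difference was 0.05 ± 0.12, and control monocytes minus control neutrophils gave 0.17 ± 0.12 (adjusted p = 0.25, limma). Among samples labelled deficient the cell types differed by -0.03 ± 0.12, or -0.33 under quantile normalization (adjusted p = 0.0203, limma). That normalization moved this comparison by a median of -0.12 among the 2678 genes of highest mean, and by 0.09 among the 2678 of lowest mean. Calls over all genes went from 4019 higher and 4293 lower to 3441 and 4797. How much of the Rac1 move is general was not tested.

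Rac2, the form found mainly in blood cells, read 10.63, 10.44, 10.27 and 10.12 in monocytes labelled deficient and 9.93, 10.19, 9.66 and 9.86 in controls. Control replicate 2 lay above deficient replicate 4, and elsewhere the deficient arrays were higher. The difference of 0.46 ± 0.25 did not pass (95% interval -0.07 to 0.98, adjusted p = 0.334, limma), and passed when array set was a block in the fit (adjusted p = 0.0489), where 11.3% of all genes did. In neutrophils Rac2 read 11.20, 11.41, 10.10 and 10.49 on deficient arrays, against 11.30, 11.72, 10.77 and 10.74 on controls. Replicates 3 and 4 of the deficient group and 4 and 5 of the controls, all of set B, were the lower ones.

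Rac2 was 2.34-fold lower in control monocytes than in control neutrophils (-1.22 ± 0.25, adjusted p = 4.17e-04, limma). Among samples labelled deficient the difference of -0.43 ± 0.25 did not pass (adjusted p = 0.136, limma). It passed with the replicate block (adjusted p = 0.0208), where 64.1% of all genes did, and with array set as a block (adjusted p = 0.0142). It was -0.77 within set A (adjusted p = 0.00114) and -0.10 within set B (adjusted p = 0.547), by limma. Without neutrophil deficient replicate 3 it was -0.67 (adjusted p = 0.0232, limma). Under quantile normalization it was -0.87 (adjusted p = 0.00407, limma). That normalization moved the 2678 genes of highest mean by a median of -0.12 in this comparison. Rac2 moved further, and the reason was not tested. The change in monocytes minus that in neutrophils was 0.79 ± 0.35, with adjusted p = 0.327 by limma, or 0.0337 with array set as a block.

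**Figure D3:**
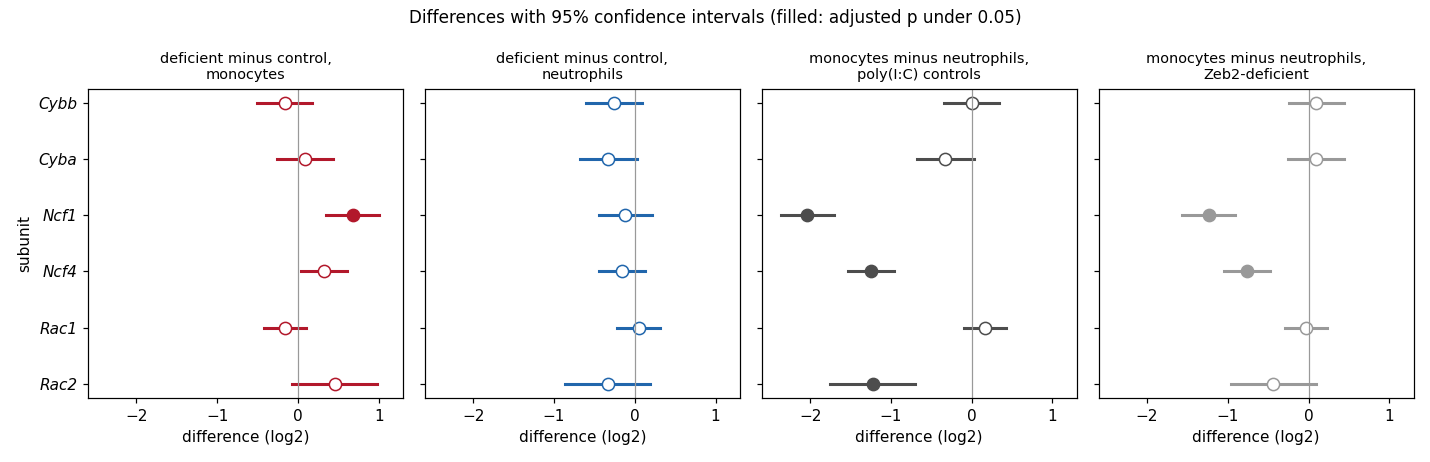
Difference in log2 intensity on the x axis for each subunit on the y axis, with its 95% confidence interval, in 4 comparisons. Filled points passed an adjusted p of 0.05: Ncf1 in deficient minus control monocytes, Ncf1, Ncf4 and Rac2 in monocytes minus neutrophils among controls, and Ncf1 and Ncf4 among samples labelled deficient.

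For monocytes minus neutrophils, 3 of 6 subunits were lower and 0 higher among controls, where 28.7% of all genes were lower and 58.6% differed. Among samples labelled deficient, 2 of 6 were lower, where 32.1% of all genes were lower and 62.1% differed.

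The order of the 6 group means had few steps that passed. For Ncf1 the neutrophil groups came first, then monocytes labelled deficient (1.24 lower), then control monocytes (0.68 lower), and both of those steps passed. For Ncf4 a single neighbouring step passed, neutrophils above monocytes among samples labelled deficient. No neighbouring groups passed for Cybb, Cyba, Rac1 or Rac2. The control monocytes and control neutrophils, between which Rac2 passed, are not neighbours in its order. Groups were ordered by the same means that were then compared. The steps that passed are differences already given, so the order adds no evidence.

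Setting subunits against each other within an array shows unequal change only. Rac2 minus Rac1 was 0.55 ± 0.12 (log2 ratio, SD, n = 4) in monocytes labelled deficient and -0.06 ± 0.19 in poly(I:C) controls. The lowest deficient array (0.40) stood above the highest of these controls (0.11) and the single untreated array (0.17). How often ratios of other genes separate in this way was not measured. In neutrophils the same ratio was 0.95 ± 0.49 and 1.33 ± 0.43, with overlap. Cybb minus Cyba, Ncf1 minus Ncf4 and Ncf1 minus Cybb overlapped between genotypes in both cell types. In neutrophils Cybb minus Cyba was 1.49 ± 0.28 in the deficient group and 1.43 ± 0.097 in controls.

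Array set moved with several subunits. With group in the fit, set B minus set A was -0.39 ± 0.066 for Cybb (adjusted p = 0.00135), -0.24 ± 0.062 for Rac1 (0.0159) and -0.60 ± 0.10 for Rac2 (0.00134), each lower in set B in 4 of 4 groups, by limma. Cyba, Ncf1 and Ncf4 did not pass, and each was lower in set B in 2 of 4 groups. Of all genes 13.1% passed and 8.98% were lower in set B. This comparison was chosen after the data were seen, and the labels do not say what the sets are.

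**Figure D4:**
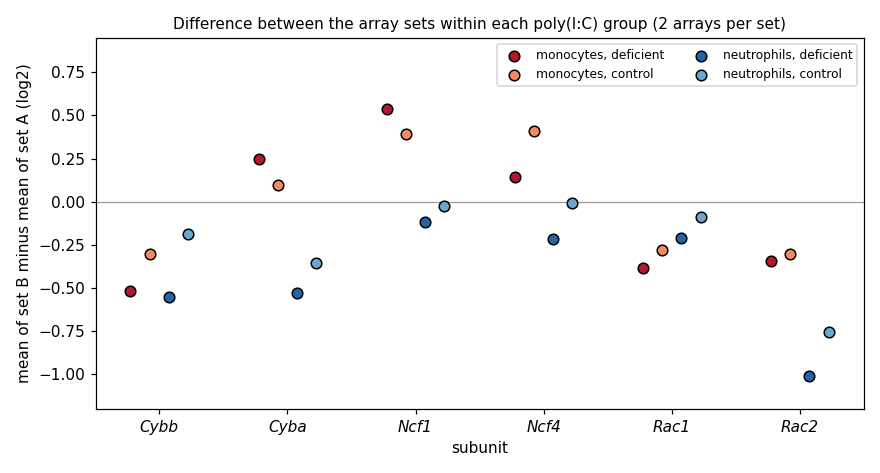
Mean of set B minus mean of set A (log2) on the y axis for each subunit on the x axis, 1 point for each poly(I:C) group with 2 arrays per set. Cybb, Rac1 and Rac2 lie below 0 in all 4 groups, and Rac2 reaches -1.01 in deficient neutrophils.

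The untreated controls are single arrays, assumed to vary like the other groups. Poly(I:C) minus untreated gave 0 of 6 subunits past the test in each cell type, and 0 of all genes by limma, with 330 genes in monocytes and 258 in neutrophils at an unadjusted p under 0.05. Both untreated arrays belong to set A and have replicate number 3, which they share with deficient arrays of set B. The replicate block therefore carries any difference between the sets into the comparison of poly(I:C) with untreated. Rac2 in monocytes differed by -0.38 (95% interval -1.21 to 0.45), by -0.08 with array set as a block and by -0.83 with the replicate block. Ncf4 in neutrophils differed by -0.35 (95% interval -0.80 to 0.10), by -0.39 with array set as a block and by -0.59 with the replicate block.

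Genes whose levels ran most like each subunit over the 18 arrays were named by Pearson correlation, as a description, since the arrays share cell types and sets. Ncf1 ran with Pram1, Mgll and Gadd45a (r = 0.994, 0.994 and 0.990). Ncf4 ran with Padi4 (0.972), Rac2 with Slc35e1 (0.964), Cybb with Ddx17 (0.949), Cyba with Vamp8 (0.914) and Rac1 with Necap1 (0.911).

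Other genes of the oxidative burst were taken as 7 lists, of which 105 genes were tested. In monocytes labelled deficient 11 of these 105 were higher and 2 lower, with a median difference of -0.05 against -0.03 over all genes. Of all genes 5.11% were higher and 2.44% lower in this comparison. In neutrophils 0 of 105 passed by limma, with 1 at an unadjusted p under 0.05, against 683 of all 13387 genes. The other oxidase genes (6 tested) and Rac regulators (18 tested) had 0 calls in monocytes by limma. They had 0 and 5 at an unadjusted p under 0.05, where 2699 of all 13387 genes were.

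Among 16 receptors that trigger the burst, 3 were higher and 2 lower in monocytes labelled deficient. Cxcr2, a neutrophil chemokine receptor that is also one of the 20 neutrophil markers, averaged 8.45 ± 0.72 in deficient and 4.78 ± 0.77 in control monocytes (SD, n = 4 each), a difference of 3.66. C5ar1, the receptor for complement C5a, was higher by 1.28, and Clec7a, the beta-glucan receptor dectin-1, was lower with a difference of -0.84. Of 9 channels and negative regulators, Hvcn1, the proton channel that balances the charge of the oxidase, was higher by 1.29 (adjusted p = 0.00817, limma). Of 19 kinases and lipid enzymes, Plcb2, a phospholipase C, was higher by 0.92 (adjusted p = 0.00205, limma).

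For NADPH supply 2 of 13 were higher, the pentose phosphate enzymes Rpia (1.01, with overlapping groups) and Tkt (0.78). Both calls were easily lost: with 1 array left out, Rpia passed in 4 of 8 fits (0.70 to 1.29) and Tkt in 3 of 8 (0.72 to 0.87). For handling of oxidants 4 of 24 were higher and 0 lower. Mpo, the myeloperoxidase of primary granules and one of the promyelocyte markers, differed by 2.64, with overlapping groups and adjusted p = 0.0117 by limma. Gclm, a subunit of the enzyme that starts glutathione synthesis, differed by 0.82.

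**Figure D5:**
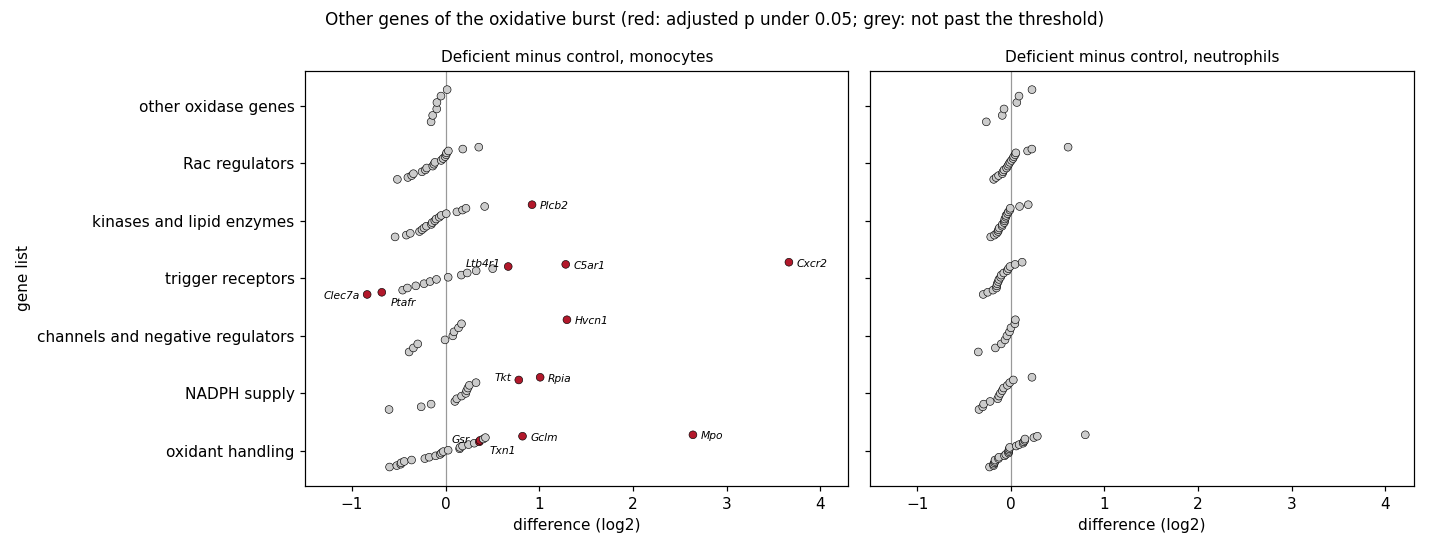
Difference in log2 intensity, labelled deficient minus control, on the x axis for genes of 7 lists on the y axis, in monocytes (left) and neutrophils (right). Red points passed an adjusted p of 0.05, 13 genes in monocytes and 0 in neutrophils.

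Between control cell types, 26 of the 105 genes were higher in monocytes and 46 lower, where 29.9% of all genes were higher and 28.7% lower. Receptors made up 14 of the lower ones and 1 of the higher, and oxidant handling genes 13 of the higher and 7 of the lower. Prdx1 and Prdx2, which reduce peroxides, were higher by 3.68 and 3.55. C5ar1 and the cation channel Trpm2 were lower, with differences of -4.10 and -3.12.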

How the data were processed

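RNA was measured on Affymetrix Mouse Gene 1.0 ST arrays. The deposited values are log2 intensities per probe set, made by the authors with RMA, as the submitters' processing notes record. The software behind it is not given in the sources used here. Of 30177 probe sets, 21789 had 1 symbol, 1621 several and 6767 none, and 99.58% of the first kind matched RefSeq by Entrez ID. The probe set with the highest mean stood for a gene. Genes above the array's 40th percentile on at least 4 of 18 arrays were tested (13387). The fit, by limma 3.58.1 (R 4.3.3), held all 18 arrays with 1 mean per group, let the variance follow the level and left 12 residual degrees of freedom. The number of arrays limits precision. On simulated data for the monocyte comparison over 13387 genes, 30.9% of differences of 0.5, 95.5% of 1 and 98.5% of 2 (log2) were recovered. The simulation changed 68, 66 and 66 genes by these sizes, with independent noise for each gene and no difference between array sets. In the data 1010 genes passed and 13.1% of genes moved with array set, so recovery there can differ from these shares.

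The members and gene lists were chosen with earlier results of these data known. Genes of the lists were picked by a rule: up to 4 per list with the largest change past the threshold by genotype, and the 2 highest and 2 lowest between control cell types. The text names only some of those picked. Left out by genotype were Ptafr and Gsr, which each passed in 1 of 8 fits with 1 array left out. Left out between control cell types were, among others, Cxcr2 (-7.26) and Slc7a11 (-3.59). Deviations of same-numbered arrays correlated at 0.290 to 0.428 between monocyte genotypes (3 of 3 pairs) and 0.183 to 0.378 between neutrophil genotypes (3 of 3). Between deficient cell types they correlated at 0.124 to 0.246 (4 of 4). The replicate block treated these numbers as pairs, which the labels do not state. Both arrays of each such pair also lie in the same array set, so the correlations cannot tell pairing from set. Alternatives were quantile normalization, no filter or a stricter one, the mean of a gene's probe sets, no variance trend, only the arrays compared, replicate and array set blocks, single sets, and each array left out.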

Additional observations from a re-analysis of the deposited data

Results flagged for a closer look

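Of 144 groups of 4 arrays examined for a single value far from the rest, 5 held one, and chance gives about 1 in 20 groups. None was a subunit. Among deficient monocytes, replicate 2 read 10.5 for Mpo (the other arrays 11.8 to 12.1) and 8.86 for Prdx2 (8.52 to 8.55). Among control monocytes, replicate 1 read 10.08 for Zeb2 (9.86 to 9.88) and 8.84 for Clec7a (8.990 to 8.993), and replicate 5 read 9.72 for Pgd (9.46 to 9.48).

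Of all genes 2.68% passed limma's test of the change in monocytes minus the change in neutrophils. This difference passed for 6 of the 105 tested genes of the oxidative burst. It was 3.69 for Cxcr2 (adjusted p = 1.80e-04), 1.64 for Hvcn1 (0.0343), 1.58 for C5ar1 (0.0118), 1.12 for Tkt (0.0484), 1.05 for Plcb2 (0.0207) and 0.42 for Txn1 (0.0296), all by limma. In deficient monocytes each was higher than in controls and had passed there. That change is part of this difference, so passing here is no separate evidence. In deficient neutrophils each mean was lower than in controls, and 0 of the 105 passed there.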

How the results depend on the processing

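With only the arrays compared in the fit, 0 subunits were higher in deficient monocytes and 500 genes passed, against 1 and 1010 in the fit reported, and 9 genes passed in neutrophils, against 16. With the array set as a block these were 2 subunits and 1516 genes in monocytes, and for the difference between cell types 2 subunits and 567 genes, against 0 and 359. Within set A, 0 subunits and 215 genes passed in monocytes, 3 genes in neutrophils and 72 for the difference. Within set B, 1724 genes passed in monocytes, and 2 subunits and 731 genes for the difference. For monocytes minus neutrophils, set A gave 1 higher subunit among controls against 0, and set A and quantile normalization each gave 4 lower among deficient samples against 2. With the replicate number as a block, 1 subunit passed the difference between cell types, 879 genes passed in monocytes and 13 in neutrophils. For poly(I:C) that block mixes treatment with array set, since untreated arrays of set A share a number with deficient arrays of set B. Control monocytes and neutrophils of the same number correlated at 0.059 to 0.259 (3 of 4 pairs over 0.1), so those numbers were not taken as pairs, and the block gave 8140 genes there. Apart from these and the values given with the results, the block changed no other call on a subunit. The cause of these shifts was not tested.

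Leaving out 1 array gave 620 to 2001 genes in monocytes (2001 without deficient replicate 2, 621 without deficient replicate 3 and 620 without deficient replicate 4), with Ncf1 past the threshold each time at 0.58 to 0.84. In neutrophils it gave 8 to 17 genes (8 without deficient replicate 1, 9 without control replicate 4). For the difference between cell types it gave 245 to 904 genes and 0 to 1 subunits. That subunit was Ncf1, at 0.96 (adjusted p = 0.00267) without monocyte deficient replicate 2, which also gave the 904 genes, and at 0.90 (0.0388) without monocyte control replicate 4, by limma. Lower subunits among deficient samples numbered 2 to 3.

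Signs turned for differences that had not passed in the fit reported. In neutrophils, Rac1 was -0.0158 in set B. Monocytes minus neutrophils gave, under quantile normalization, -0.40 for Cybb and -0.10 for Rac1 in controls, and -0.33 for Cybb and -0.22 for Cyba in deficient samples. That normalization moved the 2678 genes of highest mean by a median of -0.09 in controls and -0.12 in deficient samples. The 2677 genes next below them in mean moved by -0.18 and -0.21. The subunits just named moved further than these medians, and the reason was not tested. In set A, deficient Cyba was -0.30, which passed (adjusted p = 0.0356, limma), and Rac1 0.0506, and in set B control Cybb was -0.0553. For poly(I:C), the array set block gave 0.14 for Cybb and 0.0026 for Cyba in monocytes, and 0.10 for Cybb, 0.10 for Rac1 and 0.20 for Rac2 in neutrophils. Neutrophil Cyba was -0.0282 under quantile normalization and -0.25 under the replicate block. With 1 array left out, signs turned within -0.0136 to 0.1191 for Rac1 in neutrophils and -0.0102 to 0.2514 for the Cybb difference between cell types. For monocytes minus neutrophils the ranges were -0.0612 to 0.0641 for control Cybb, and in deficient samples -0.0093 to 0.2523 for Cybb, -0.119 to 0.2061 for Cyba and -0.1102 to 0.0681 for Rac1. For poly(I:C) they were -0.1209 to 0.0044 for monocyte Cybb, and in neutrophils -0.0627 to 0.1005 for Cyba, -0.0436 to 0.0079 for Rac1 and -0.2987 to 0.0272 for Rac2.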
